A study of Drosophila melanogaster with 2 samples.

Results

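STAT92E ChIP peaks on the X chromosome of the adult Drosophila intestine were the 211 peaks that a deposited list of 1487 peaks places on chrX, which is 14.2% of the list (Wilson 95% interval 12.5% to 16.1%). They were chosen by chromosome alone and not by any measured value. The list came from 1 ChIP library and 1 input library. Both libraries were made from midguts of adult flies with a W1118 background and the genotype esgts>Upd and STAT92E, kept at 29°C for 10 days. In these flies the temperature-sensitive esg-Gal4 driver drove expression of Upd, a pathway ligand, together with STAT92E in the progenitors, so the JAK/STAT pathway was strongly active in the input as well as in the ChIP sample. About 400 midguts, without hindgut and Malpighian tubules, were pooled and sheared, and an antibody against STAT92E raised in mouse was used for the ChIP library only. The driver acts in progenitor cells while the chromatin came from the whole midgut, and the labels do not give the sex of the flies. With 1 library of each kind there is no replicate, so every interval below covers counting error only and no test between conditions was possible.

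The JAK/STAT pathway carries a signal from secreted Unpaired ligands through the receptor Domeless and the kinase Hopscotch to STAT92E. Phosphorylated STAT92E forms dimers, enters the nucleus and binds palindromic sequence elements in the regulatory regions of its target genes. In the adult midgut the pathway drives the division of intestinal stem cells and the differentiation of their daughters, in particular after damage. Several genes of the pathway itself lie on X. The Release 6 annotation places 6 core components on X, which are the ligand genes upd1, upd2 and upd3, the receptor gene dome, the gene et for a shortened receptor that inhibits the pathway, and the kinase gene hop. Males carry a single X chromosome, and its genes are transcribed at a raised rate by dosage compensation.

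Peaks are given as the list gives them, on the dm3 build, with the reads of both libraries in the peak after the authors' normalization. The read column marked I was taken as input, and the one marked M, for the antibody from mouse, as ChIP. The values lie on regular steps, and if 16 steps make 1 read, 1 input read counted as 0.582 normalized reads. An input at or under 3 reads (1.75 normalized reads) is too low for a ratio, and the fold of ChIP over input is then given as "at least", computed against the one-sided 95% Poisson limit of the input reads or against 3 reads, whichever is larger.

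STAT92E peaks lay along X at about the density of the autosomes, as counted between the first and last peak of each arm. The first peak began at 147600 and the last ended at 21951559, a span of 21.8 Mb with 9.68 peaks per Mb (Poisson 95% interval 8.42 to 11.1). On the 4 large autosomal arms together, 982 peaks gave 10.3 per Mb (9.64 to 10.9). The single arms ranged from 9.58 per Mb on 2R to 11.3 per Mb on 3L, so X lay inside the range of the autosomal arms. The small chromosome 4 had 9 peaks, at 8.76 per Mb (4.0 to 16.6). X carried 17.6% of the 1202 peaks on chromosome arms (15.5% to 19.8%).

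Along X the peaks were unevenly spread but left no window empty. When the span was divided into windows of 1 Mb from the first peak, the 21 full windows held from 2 to 16 peaks, with a median of 10. The fewest peaks were in the first window, from 147600 to 1147599. The most, 16 each, were in the neighbouring windows that began at 3147600 and 4147600, and the window after these held 4. The windows from 8147600 and 11147600 were also rich, with 14 and 15 peaks. The variance of the window counts was 1.42 times their mean, against 1.22 on 2L, 1.35 on 3R, 1.59 on 3L and 2.62 on 2R. The unevenness of X was thus within the range of the other arms. The Poisson intervals of density assume a variance equal to the mean, so they are too narrow where the variance is larger.

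**Figure D1:**
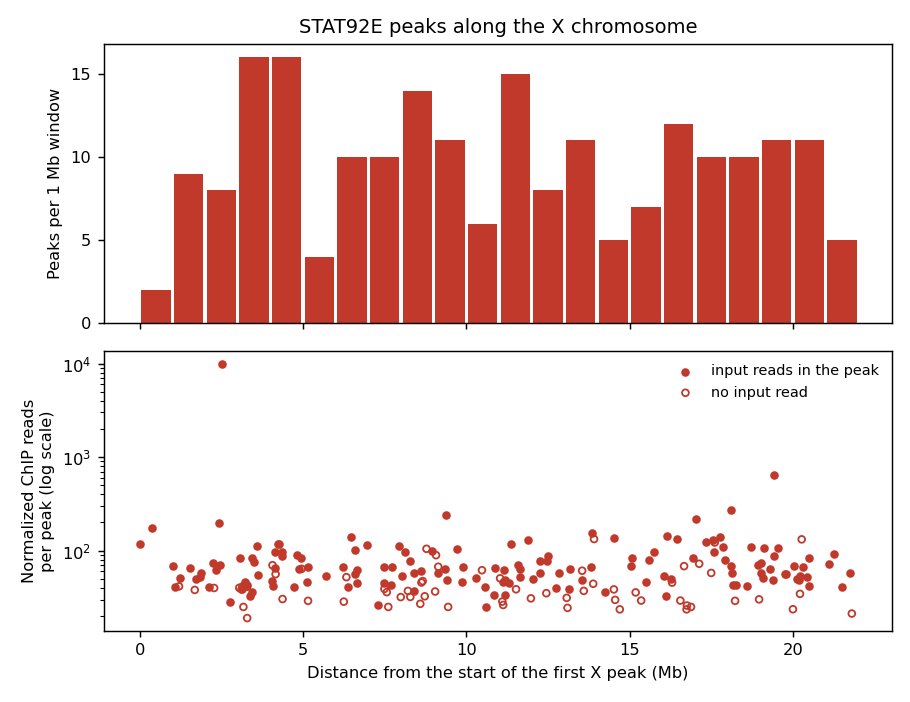
The upper panel plots the number of STAT92E peaks in windows of 1 Mb from the first X peak (the last window holds 0.804 Mb), and the lower panel plots the normalized ChIP reads of each of the 211 peaks on a log scale, with open circles for peaks without an input read. Counts range from 2 to 16 per window, and 1 peak with 9887 reads stands far above the others.

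When the span was cut into 4 equal segments, they held 54, 52, 51 and 54 peaks. The median of the normalized ChIP reads was 55.7, 52.7, 49.9 and 65.5 in the same order. The intervals of these medians were 42.5 to 66.5, 45.3 to 62.4, 44.3 to 61.0 and 54.0 to 73.8. All of them overlapped, although the median of the last segment was above the intervals of both middle segments. The difference was not tested. Peaks without an input read were 22.2% of the first segment, 34.6% and 35.3% of the middle segments and 25.9% of the last. In a group as defined below were 23 of the 54 peaks of the first segment (42.6%), beside 33.6% of all X peaks. The shares of the other segments were 28.8%, 33.3% and 29.6%. The median gaps of the segments in order were 52.2, 55.3, 61.9 and 65.5 kb. These differences were not tested. Among the first 148 peaks of the list were 4, 6, 2 and 7 peaks of the segments in order, beside 9.95% of all peaks.

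Neighbouring X peaks were spaced much as on the autosomes at the median. The 210 gaps between them ran from 120 bp to 625310 bp, with a median of 60.6 kb (95% order-statistic interval 51.4 to 73.3 kb) and a mean of 104 kb. The median gap on the autosomal arms was 60.3 kb (55.3 to 66.5 kb) and the mean was 97.6 kb. The longest stretch of X without a peak lay between 541269 and 1166580, followed by 609 kb between 20628589 and 21237580. The gaps on both sides of the peak from 5842850 to 5842959 were the next longest, with 529 and 521 kb, which made it the most isolated peak of the chromosome. Its signal was 53.3 normalized reads in ChIP and 0.327 in input, at least 22.8-fold, so a peak of ordinary size stood alone there.

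X had a smaller share of gaps of up to 20 kb than each of the 4 large autosomal arms. Gaps of up to 20 kb were 18.1% of the gaps on X and from 21.0% to 27.0% on the 4 autosomal arms, and the lower quartile of the gaps was 27.3 kb on X against 18.3 kb on 2R to 25.8 kb on 2L. Gaps of up to 1 kb, of which X had 3, were 1.43% of the gaps on X, 0.840% on 2L and from 2.92% to 3.38% on the other arms. When peaks up to 20 kb apart were joined, the X peaks formed 173 groups, with 140 single peaks, 28 pairs and 5 groups of 3. None of the 173 X groups held 4 or more peaks, against 13 of the 750 on the autosomal arms (single peaks included), with up to 6 peaks. Of these 13, 3L had 1, 2L had 3, 3R had 4 and 2R had 5. In groups of 2 or more were 71 X peaks, or 33.6% (Wilson 27.6% to 40.3%), against 40.9% (37.9% to 44.0%) of the autosomal peaks. The difference of -7.29 percentage points had a Newcombe 95% interval from -14.1 to -0.00765, which ends just below 0. The single autosomal arms ranged from 37.2% on 2L to 45.3% on 2R.

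The lower share of grouped peaks on X depended on the joining distance. At 5 kb it was 9.95% on X against 15.0% on the autosomal arms, a difference of -5.02 points with an interval from -9.12 to 0.204. At 50 kb it was 66.8% against 67.6%, and X lay inside the range of 64.2% to 72.4% of the single arms. Among peaks with a listed FDR of 0, the difference at 20 kb was larger, with 27 of 146 X peaks (18.5%) against 33.3% of the autosomal peaks, or -14.8 points (-21.4 to -6.99). The single arms then ranged from 29.6% to 37.0%. In the same peaks the difference was -5.20 points (-8.87 to 0.172) at 5 kb and -1.16 points (-10.0 to 7.54) at 50 kb. Both of these intervals include 0. Peaks of a group are not independent of each other, which makes these intervals too narrow. X also had fewer such peaks per Mb (6.84 against 7.39), and the part of density in the difference was not tested.

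**Figure D2:**
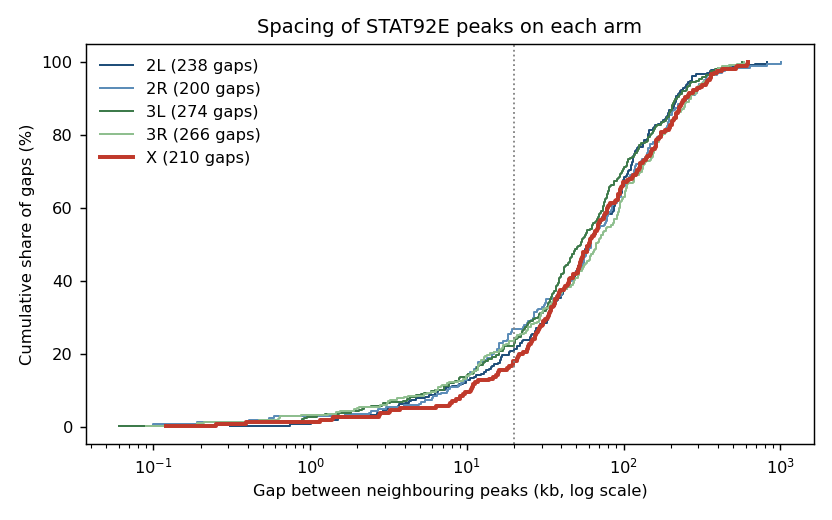
Cumulative share of the gaps between neighbouring peaks on X (210 gaps) and on each large autosomal arm, on a log scale of kb, with a dotted line at 20 kb. The X line runs lowest of the 5 at 20 kb (18.1% of gaps), and the lines lie closer together at the medians, which range from 52.7 to 66.5 kb.

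**Figure D3:**
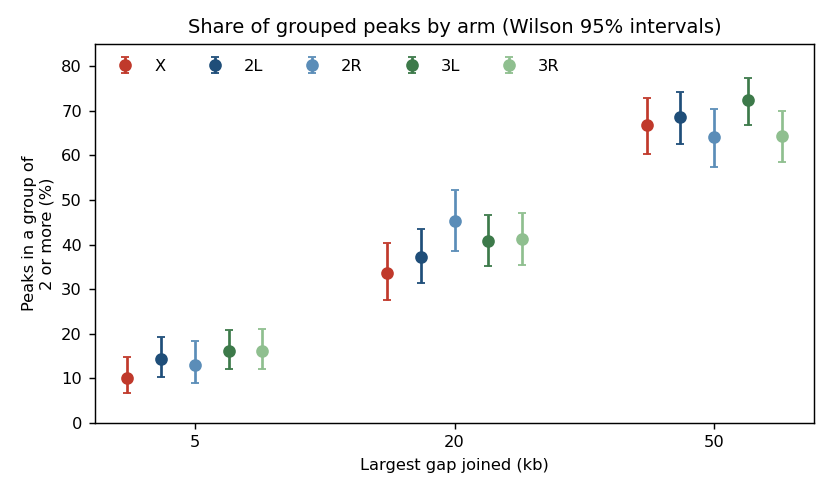
Share of the peaks of X and of each large autosomal arm that lie in a group of 2 or more when gaps of up to 5, 20 or 50 kb are joined, with Wilson 95% intervals as bars. X has the lowest share at 5 kb (9.95%) and 20 kb (33.6%) and lies among the other arms at 50 kb (66.8%).

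The 5 X groups of 3 peaks held peaks of 19.0 to 97.6 normalized ChIP reads, with a median of 45.3, and 3 of the 15 peaks were above the upper quartile of X. Their ranks ran from 348 to 1476. The group from 4295770 to 4312379 held 217 normalized ChIP reads, its peaks ranked 568, 733 and 1027, and their reads were 56.1, 96.9 and 64.4. The group from 4508360 to 4525109 held 215 reads, of which 97.6 and 86.6 were in peaks only 250 bp apart. The groups from 7622260 to 7642569 and from 11252780 to 11278789 held 151 and 101 reads. The most compact group spanned 3150 bp, from 3438240 to 3441389. Its peaks had 42.5, 41.1 and 19.0 reads, and the last of these was the X peak with the fewest reads and the lowest rank (1476). None of the 15 peaks was among the first 148 of the list, which hold 9.95% of all peaks.

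Grouped X peaks as a whole were as long as single ones, with a median of 140 bp in both sets. Their median listed log2 ratio was 5.21 (5.15 to 5.36), against 5.37 (5.31 to 5.52) for single peaks. The median input was 0.545 normalized reads (0.218 to 0.800) in grouped and 0.218 (0.109 to 0.364) in single peaks, and the median ChIP reads were 57.8 (48.2 to 67.3) and 52.1 (47.3 to 61.8). All of these intervals overlapped, although the median of grouped peaks lay below the interval of single peaks in log2 ratio and above it in input. The differences were not tested. Among the first 148 peaks of the list were 3 of the 71 grouped peaks (4.23%) and 16 of the 140 single peaks (11.4%), beside 9.95% of all peaks.

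Of the 210 gaps on X, 11 (5.24%) were up to 5 kb, against 8.08% on the autosomal arms, and in 8 of these 11 pairs the reads of the partners differed by no more than a factor of 2. The closest pair, separated by 120 bp, was the least equal. Its lower peak, from 18261580 to 18261769, had 69.0 ChIP reads and ranked 982. Its upper peak, from 18261890 to 18262169, had 269 reads and ranked 15, the best rank of any X peak. The pair at 20627960 to 20628059 and 20628450 to 20628589 had 41.4 and 84.2 reads. Over all 11 pairs the partner with more reads had from 1.03 to 3.90 times the reads of the other, with a median of 1.45. Pairs farther apart were not compared in this way. The lower and upper quartiles of all X peaks, 40.03 and 79.2 ChIP reads, also lie within a factor of 2. The count of 8 of 11 is therefore not shown to be particular to close pairs.

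The study's list of selected target genes covers 4 of the X peaks, at dome and Smr. The other 207 X peaks are given by position only, because an annotation of the dm3 build was not used here. For the same reason peaks at upd1, upd2, upd3, et and hop were not looked up.

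The peak at dome (CG14226), the gene of the JAK/STAT receptor, had the second most reads on X. It lies from 19577210 to 19577429, with 644 normalized ChIP reads (Poisson 595 to 695) and 17.6 normalized input reads. The target list places it in the 5′ UTR. Its 36.6-fold enrichment (95% interval 25.4 to 54.6) was the lowest of the 22 X peaks that had more than 3 input reads, whose ratios ran from 36.6 to 119 with a median of 49.5. The dome peak was thus large in both libraries, and by the listed log2 ratio of 5.25 it ranked 891. A second peak lay 15420 bp away, from 19561670 to 19561789, with 88.2 reads in ChIP and 2.18 in input. It was enriched 40.4-fold (14.8 to 160) and ranked 1384. In Release 6, et directly precedes dome on the chromosome and Ubqn, a ubiquilin gene, follows it.

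Smr (CG4013), which encodes the corepressor SMRTER of nuclear receptor and Notch target genes, had 3 peaks over 35.9 kb. The target list places each of them in a different intron. The peak in the first intron, from 12635460 to 12635659, held 87.7 normalized reads of the ChIP and 1.53 of the input library (at least 20.9-fold). The second intron held the peak from 12624020 to 12624159, with 78.3 and 1.20 normalized reads (at least 21.1-fold). The peak in the fifth intron, from 12599730 to 12599879, had 35.1 ChIP reads (at least 20.1-fold) while its input was 0. Although the reads differed by a factor of 2.50, the bounds were nearly equal, since the peaks with more ChIP reads also had more input. The peaks ranked 1098, 947 and 1018, all in the lower part of the list. In Release 6 the genes CG15725, lncRNA:CR43963 and asRNA:CR45623 overlap Smr.

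Of the 10 highest-ranked X peaks, 5 lay in the last of the 4 segments of X, 1 in the third and 2 in each of the others. The last segment held 54 of all 211 X peaks, and the difference was not tested. None of the 10 is in the study's target list, which is partial and covers only 4 of the 211 X peaks. The ranks of these 10 peaks ran from 15 to 69 of 1487 and their listed log2 ratios from 7.18 to 6.38. After the peak at 18261890 came the peak from 2684290 to 2684819, which ranked 17, and the peak from 17179400 to 17179679, which ranked 34. In the latter, 216 normalized reads in ChIP and 1.82 in input gave a 119-fold enrichment with a wide interval from 40.9 to 556. The others had from 89.4 to 133 ChIP reads and at most 0.218 input reads. The largest of their bounds were at peaks whose input was 0. These were at least 76.2-fold from 14060090 to 14060359, with 133 ChIP reads, at least 75.6-fold from 20416910 to 20417219, with 132, and at least 70.0-fold from 17754810 to 17755029, with 122. The remaining high-ranked peaks began at 4412690, 9870710, 18861970 and 9222990, with bounds from 51.2-fold to 54.6-fold.

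Ordering by ChIP reads gave a different set, since only 3 of its first 10 peaks were also among the 10 highest ranks. The peak from 2684290 to 2684819 was first, with 9887 normalized reads in ChIP and 91.3 in input, a 108-fold enrichment (92.5 to 128). Its input was high as well, at 172 normalized reads per kb where the median X peak had 1.96. The gene there was not looked up, and the part of the copy number of this DNA in its reads was not tested. This 1 peak held 41.0% of the ChIP reads and 40.02% of the input reads of all X peaks, and at 530 bp it was also the longest. After dome and the peak at 18261890 came the peak from 9540370 to 9540549, with 242 reads in ChIP and 5.85 in input (41.4-fold, 22.2 to 87.2). The others of the 10 had from 139.5 to 216 reads. The 3 X peaks with the most input reads were all among the 4 with the most ChIP reads.

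**Figure D4:**
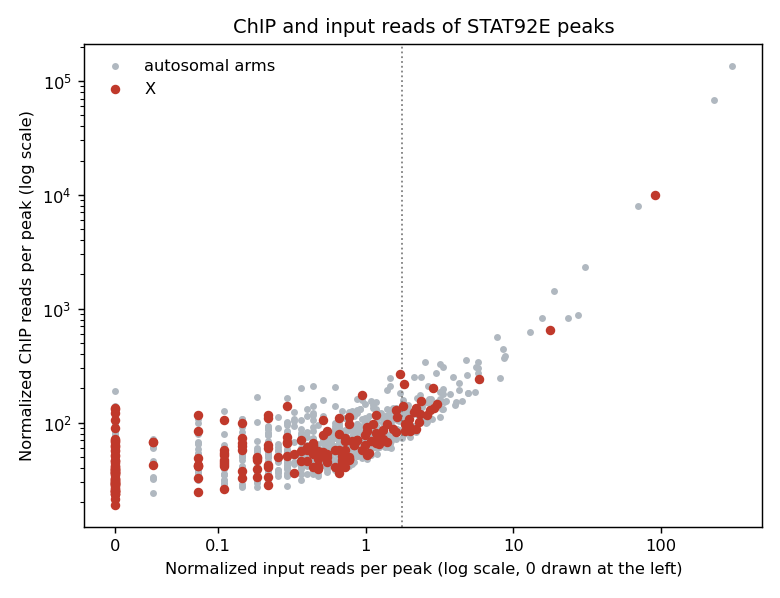
Normalized ChIP reads against normalized input reads for the 211 X peaks (red) and the 982 autosomal peaks (grey), both on log scales with an input of 0 drawn at the left and a dotted line at 1.75 normalized input reads, or 3 reads. Apart from the peak with 9887 ChIP and 91.3 input reads, the X peaks lie within the cloud of the autosomal peaks. The X peak next to it at the right has 17.6 input reads.

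The read columns of X peaks were close to those of the autosomal arms. The median X peak had 56.1 normalized ChIP reads (50.1 to 61.6), against 59.0 (56.2 to 60.9) on the autosomal arms and 53.6 to 61.3 on the single arms. The lowest X peak had 19.0 reads, the lower and upper quartiles were 40.03 and 79.2, and 1 in 10 peaks had more than 117. The median input was 0.291 normalized reads (0.182 to 0.436) on X and 0.327 (0.291 to 0.364) on the autosomal arms, which is less than 1 read in both. A difference in input between X and the autosomes was therefore not detectable at this depth from the medians.

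Added over all peaks, the input was 7.17 normalized reads per kb on X and 8.69 on the autosomal arms, but few peaks set these values. Without the peak from 2684290 it was 4.37 per kb on X (Poisson 3.83 to 4.97), and without the 4 peaks at hyd on 3R, which held most ChIP reads of the list, it was 5.06 on the autosomal arms (4.79 to 5.34). Without the dome peak as well, X had 3.84 per kb (3.33 to 4.40), while no further autosomal peaks with high input were left out. With all of their peaks, 3L, 2R, 2L and 3R had 4.19, 4.27, 5.34 and 17.7 per kb. The place of X among the arms depended on which peaks were summed.

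Every peak was called for a high ratio of ChIP to input, so enrichment itself follows from the selection and only its extent is described. At least 20-fold enrichment could be shown for 132 of the 211 X peaks (62.6%, 55.9% to 68.8%). The share was 65.4% of all peaks in the list and 65.7% of the autosomal peaks. The difference from the autosomal arms was -3.12 points (-10.4 to 3.82). Every X peak with more than 3 input reads was above 20-fold, the lowest at 36.6-fold. The X peaks not counted thus had only a lower bound under 20-fold, which does not show a lower enrichment. With a pseudocount of 1 on both libraries, 99.5% of the X peaks and 99.8% of the autosomal peaks passed 20-fold. No input read was found in 29.4% of the X peaks, against 30.2% of the autosomal peaks and 38.3% of the whole list, which includes unplaced and heterochromatic sequence. The difference was -0.861 points (-7.31 to 6.19). The intervals of both differences include 0, and they leave room for a difference of several points in either direction.

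In rank, too, X peaks followed the list. Of the first 148 peaks, 19 were on X, which is 9.005% of the X peaks (5.84% to 13.6%) against 9.95% of all peaks and 8.86% of the autosomal peaks. The median listed log2 ratio was 5.34 on X (5.26 to 5.39) and 5.36 on the autosomal arms (5.32 to 5.39). The smallest listed Poisson p-value was at the cap of its column in 23.2% of the X peaks, 27.6% of the autosomal peaks and 27.0% of all peaks, a difference from the autosomal arms of -4.37 points (-10.3 to 2.34). A listed FDR of 0 was given to 146 X peaks (69.2%), beside 70.5% of all peaks. The FDR followed the log2 ratio in steps. The X peaks with an FDR of 0 had ratios of 5.15 and above, while the 34 X peaks with the largest FDR of 0.00202 had ratios from 4.70 to 4.99.

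X peaks had a median length of 140 bp (130 to 150), the same as on every large autosomal arm. The shortest, 100 bp, was shared by 28 peaks, and the longest after the peak of 530 bp were 310 bp, from 20416910 to 20417219, and 290 bp, from 8929820 to 8930109. Longer than 200 bp were 12.8% of the X peaks and 12.7% of the autosomal peaks. Across the 211 peaks, length and ChIP reads had a Spearman rho of 0.635, and across the autosomal peaks 0.613. Longer intervals hold more reads by construction, so this only describes the list.

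The X peaks with the lowest ranks differed in reads. The last 3 ranks on X were 1433, 1475 and 1476, all at peaks of 100 bp. The peak from 21951460 to 21951559, the last on the chromosome, had 21.3 ChIP reads with an input of 0 (at least 12.2-fold). The peak from 21643520 to 21643619 had 41.0 ChIP and 0.727 input reads (at least 13.7-fold). The peak from 3441290 to 3441389 had 19.0 ChIP reads and also an input of 0, and its bound of 10.9-fold was the lowest on X.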

How the data were processed

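ChIP-Seq was analysed from 1 STAT92E ChIP and 1 input library of adult midguts. The submitters' processing notes name CASAVA 1.8, Bowtie and the dm3 build. The peak caller is not given in the sources used here. For each peak the authors deposited an FDR (read as a q-value), a test statistic (a score), the maximal log2 ratio over input, the -log10 of the minimal Poisson p, and each library's normalized signal, in reads. Library totals are not in the list, so depth is unknown.

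Peaks were counted, joined and compared by arm with Wilson, Newcombe, exact Poisson and order-statistic 95% intervals (Python 3.11.15, numpy 2.4.6, pandas 2.3.3, scipy 1.17.1). The order-statistic and Newcombe intervals, the intervals and bounds of the fold, and the joining were tested on simulated data. The check of the fold bound also passed values somewhat over the true fold and every input above 3 reads. The check of the Newcombe intervals drew independent peaks with equal shares. The Wilson and exact Poisson intervals were not tested by themselves. Spans between first and last peaks stood in for chromosome lengths. Intervals of the study's target list were matched by identical start and end. Gene names and neighbours came from RefSeq Release 6, whose coordinates were not used. No genome was used, so no binding sites were searched and no sequence is shown.

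The peaks named are the 10 first by rank and by ChIP reads, those at dome and Smr, the 5 largest groups, and the last, longest, shortest, most isolated and highest-input peaks. The members and lists were chosen with earlier results of these data known.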

Additional observations from a re-analysis of the deposited data

How the results depend on the processing

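With 1 ChIP and 1 input library, no replicate could be left out, and a replicate block could not be fitted. No paired analysis was possible because there is 1 library of each kind. Of 26 values under other settings, 13 left the X value inside its interval or within 1.5 times. The number of X peaks fell to 22 with more than 3 input reads. Density was 7.93 per Mb when groups were counted, against 7.85 on the autosomal arms. With a listed FDR of 0 it was 6.84 per Mb, against 7.39. The share of grouped X peaks was 9.95% at 5 kb, 66.8% at 50 kb and 18.5% with a listed FDR of 0. With an FDR of 0 the median gap was 82.4 kb and the median ChIP reads 62.8, since fewer and stronger peaks remained. The median length was 160 bp with more than 3 input reads. At or under 3 input reads were 89.6% of the X peaks. At least 10-fold enrichment was found for 100% of the X peaks and at least 40-fold for 17.5%, and with a pseudocount of 1 on both libraries 99.5% were at least 20-fold. By ChIP reads or by ChIP reads per kb, 8.06% of the X peaks were in the top 10% of the list, against 10.6% and 11.7% of the autosomal peaks. Windows of 0.5 Mb and 2 Mb, chosen after seeing the data, gave a variance of 1.66 and 1.09 times the mean.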

Other observations

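The list also gives for each peak the boundaries of a narrower binding region, whose width was the distance between them. On X this region had a median width of 26 bp, from 6 to 51 bp between the quartiles, and 50 of the 211 regions were 1 bp wide or less. In 4.27% of the X peaks the left boundary lay to the right of the right boundary, so that the width was negative, and the share was 4.28% on the autosomal arms. The centre of the region was closer to the start of the peak than to its end in 184 of the 211 X peaks (87.2%) and in 86.4% of the autosomal peaks. The median centre lay at 15.5% of the peak length on X and at 15.8% on the autosomal arms. The listed summit lay at a median of 36.5% and 37.0% of the length. How these positions were computed is not given in the sources used here, so the peak intervals and not the regions were used for positions above.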
